A study of Mus musculus with 12 samples.

Results

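NF-kappaB is a family of dimeric transcription factors that are held inactive by inhibitor proteins and drive inflammatory, survival and feedback genes once the inhibitors are removed. The 10 genes described here are the 5 subunits (Nfkb1, Nfkb2, Rel, Rela and Relb) and 5 feedback inhibitors and modulators (Nfkbia, Nfkbie, Nfkbiz, Tnfaip3 and Bcl3). They were taken by gene symbol and are 10 of the 14103 genes tested. All 10 were on the array, with 12 probes in all, since Nfkbia and Nfkbie had 2 each, and all 12 probes passed the filter on dim probes.

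Expression was measured on single-colour Illumina BeadChips in macrophages sorted for high CD11b from tumours of C57BL/6 mice that lacked or carried S1PR1, a receptor for the lipid sphingosine-1-phosphate. The 4 groups were S1PR1 KO and WT macrophages of PyMT breast tumours from females (KO_PyMT and WT_PyMT) and S1PR1 KO and WT macrophages of MCA fibrosarcomas from males (KO_MCA and WT_MCA), with 2 arrays each. RNA came from sorted cells in bulk, and the labels do not say which cells of the KO mice lost S1PR1. They name a SuperAmp and a NuGEN amplification and do not tie either to particular arrays. A further 4 arrays were controls, namely mixed PyMT macrophages (1 array), mixed MCA macrophages (2 arrays) and a repeat of the first KO_MCA sample.

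All PyMT group arrays shared a BeadChip and all MCA group arrays shared the other, so tumour, sex and BeadChip cannot be told apart, while KO and WT of a tumour were on the same BeadChip. Median raw signal was 83 to 92.5 per array, and 18316 to 23223 of 46237 probes (39.6% to 50.2%) were above background. All 12 macrophage markers, among them Itgam (CD11b), Csf1r and Adgre1, were above background on all 8 group arrays. The S1pr1 probe was above background on 0 of 12 arrays, at raw signals of 76 to 88.2, so it does not check the genotype labels. Levels below are log2 intensities after background correction, an added offset of 16 and quantile normalization, and a difference on this scale understates the change of dim genes. They compare arrays for a given probe and not genes with each other. Whether the 2 replicates of a group are separate animals or pools is not in the labels, and a p-value here reflects no more than the scatter of these arrays. In bulk samples such as these, fewer cells of a type and less RNA per cell cannot be told apart.

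Rela (p65) and Rel (c-Rel) carry transactivation domains and pair with p50, which is cut from the p105 precursor made by Nfkb1. Relb pairs with p52, cut from the p100 precursor made by Nfkb2, in the slower non-canonical arm of the pathway. Nfkbia and Nfkbie encode the cytoplasmic inhibitors IkappaB-alpha and IkappaB-epsilon, Tnfaip3 encodes A20, a ubiquitin-editing enzyme that shuts down upstream signalling, and Nfkbiz and Bcl3 encode nuclear IkappaB proteins that bind p50 or p52 on DNA. Several of the genes are themselves NF-kappaB targets, which closes feedback loops that are active in macrophages.

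Because those loops act through promoters, the RefSeq windows of the genes (250 bases before to 50 bases after each annotated start, build GRCm38.p6) were searched on both strands for the 10-letter NF-kappaB consensus. Windows existed for 7 of the 10 genes, 10 windows in all, and not for Nfkb1, Relb or Nfkbiz. The consensus was present in 8 of the 10 windows, covering 6 of the 7 genes, against 4.51% of all 32851 windows in the table. Nfkb2 has 3 of these windows, and the last 2 overlap and share 1 match, so the windows are not independent. Windows are shown for a few, those of Nfkbia and Nfkb2 as the inhibitor and the precursor best known as targets, and that of Rela as the gene with no match; each is the strand of the gene, 5′ to 3′, with consensus matches in capitals.
Nfkbia, chr12:55492598-55492897, minus strand: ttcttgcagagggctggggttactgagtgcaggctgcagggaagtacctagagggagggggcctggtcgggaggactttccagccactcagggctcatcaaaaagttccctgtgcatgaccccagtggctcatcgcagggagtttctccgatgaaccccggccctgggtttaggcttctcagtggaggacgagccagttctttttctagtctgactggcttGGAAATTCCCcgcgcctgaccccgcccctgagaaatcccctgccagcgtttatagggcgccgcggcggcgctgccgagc
Nfkb2 (first window), chr19:46304487-46304786, plus strand: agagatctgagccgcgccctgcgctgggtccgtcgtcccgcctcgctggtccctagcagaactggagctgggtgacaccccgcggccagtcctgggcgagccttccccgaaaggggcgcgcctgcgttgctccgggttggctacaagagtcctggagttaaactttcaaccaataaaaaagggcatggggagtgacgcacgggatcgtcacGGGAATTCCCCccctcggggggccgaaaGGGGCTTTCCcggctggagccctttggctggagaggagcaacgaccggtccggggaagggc
Rela, chr19:5637291-5637590, plus strand: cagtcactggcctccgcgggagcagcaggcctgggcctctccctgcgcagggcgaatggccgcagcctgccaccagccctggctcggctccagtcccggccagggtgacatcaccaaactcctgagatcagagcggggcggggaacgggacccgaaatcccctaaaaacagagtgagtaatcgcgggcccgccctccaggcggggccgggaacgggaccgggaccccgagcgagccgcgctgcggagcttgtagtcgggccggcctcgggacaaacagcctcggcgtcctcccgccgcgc
The Nfkbia match reads GGGAATTTCC on the opposite strand and began 29 bases before the start. In the first of the 3 Nfkb2 windows GGGAATTCCC, which reads alike on both strands and overlaps a further match on the opposite strand, began 39 bases before that start, and GGGGCTTTCC began 11 bases before it. The second Nfkb2 window held GGGACATTCC on the opposite strand 236 bases before its start and GGGACTTTCC just after it, and this copy of GGGACTTTCC lies 225 bases before the start of the third. Tnfaip3 held GGGACACCCC 125 bases and GGGGATTTCC, on the opposite strand, 12 bases before the first of its 2 annotated starts. Rel held GGGAAATCCC 92 bases before its start, Nfkbie held GGGGGATTCC 106 bases before, and Bcl3 held GGGACTTCCC on the opposite strand just after its start. The short stretch TTTCC, which lies within some of these matches, was in 7 of the 10 windows and in 61.3% of all windows. A match is a run of letters and not a measured binding site.

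**Figure D1:**
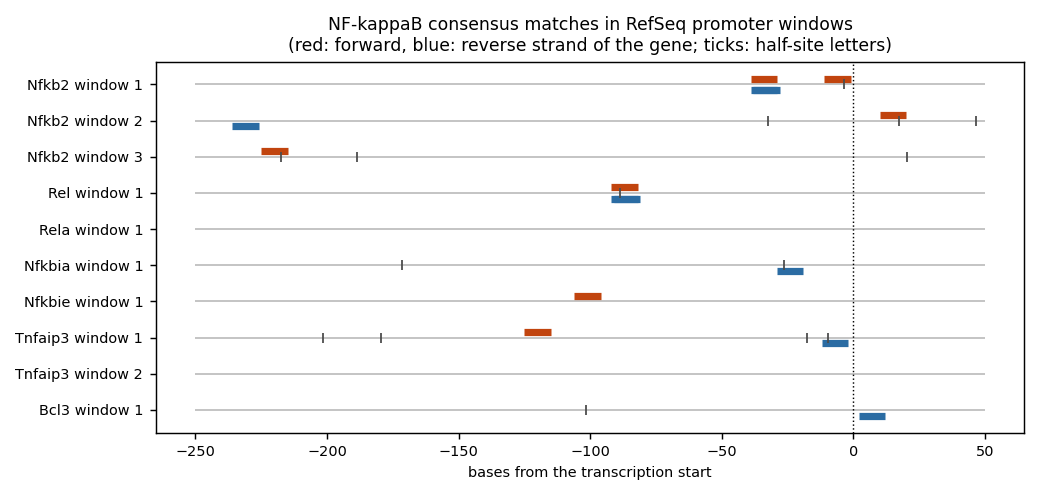
Positions of NF-kappaB consensus matches (coloured bars; red on the strand of the gene, blue on the opposite strand) and of TTTCC (ticks) along 10 RefSeq promoter windows of 7 genes, in bases from the annotated start (dotted line). Matches lie in 8 of 10 windows, and the windows of Rela and of the second Tnfaip3 start have none.

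S1PR1 loss came with no called change in any of the NF-kappaB subunits, feedback inhibitors or modulators in PyMT macrophages. limma called 0 of the 10 genes at an adjusted p under 0.05, and 0 of the 10 had an unadjusted p under 0.05. Across all genes percent called was 0 and 10.9% had an unadjusted p under 0.05. Between KO_PyMT and WT_PyMT, 3 of the 10 genes were higher and 7 lower, with a median difference of -0.09, against -0.001 over all genes tested. In absolute size the median was 0.20 for the 10 genes and 0.25 for all genes.

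Of the subunits in PyMT, Nfkb1 had the largest difference. Nfkb1 was 6.88 and 6.71 on the KO_PyMT arrays, against 5.80 and 6.18 on the WT_PyMT arrays. Both KO arrays lay above both WT arrays, 1.75-fold higher on average, a log2 difference of 0.81 ± 0.38 (SE, 2 arrays per group; 95% interval -0.11 to 1.72; limma adjusted p = 0.523). It did not pass the test, and without background correction the difference was 0.43. Rela, the main activating subunit, was 8.34 and 8.82 in KO_PyMT, against 9.32 and 8.61 in WT_PyMT, with overlapping groups and a difference of -0.39 ± 0.29 (limma adjusted p = 0.688). Rel was 6.71 and 7.42 in KO_PyMT, against 7.08 and 7.37 in WT_PyMT, so the KO arrays lay on both sides of the WT arrays. Nfkb2 was 6.07 and 6.10 in KO_PyMT, against 5.69 and 6.10 in WT_PyMT, a difference of 0.19 ± 0.33. Relb was 4.11 and 5.91 in KO_PyMT, against 4.99 and 6.10 in WT_PyMT. Its first KO_PyMT array was below background (deposited detection p-value of 0.91), which held for no other group array of any of the genes. The Relb difference of -0.54 ± 0.60 turned to 0.36 without that array.

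Of the inhibitors and modulators in PyMT, Nfkbia was 10.13 and 10.07 on the KO_PyMT arrays, against 9.97 and 9.98 on the WT_PyMT arrays. The groups did not overlap, but the difference was 0.13 ± 0.22 (limma adjusted p = 0.896), and on the other Nfkbia probe KO_PyMT had 8.32 and 7.88, on both sides of WT_PyMT at 7.98 and 7.97. Nfkb1 and Nfkbia were the only 2 of the 10 genes whose KO_PyMT and WT_PyMT arrays did not overlap, both higher in KO. Over all genes, 35.8% were apart in one direction or the other. Tnfaip3 was 8.44 and 8.16 in KO_PyMT, against 8.25 and 8.36 in WT_PyMT, and its group means were equal at 8.30 (95% interval of the difference -0.61 to 0.60). Nfkbiz was 10.84 and 10.55 in KO_PyMT, against 10.64 and 10.80 in WT_PyMT, a difference of -0.03 ± 0.19 with a 95% interval of -0.48 to 0.43. The KO arrays of Tnfaip3 and of Nfkbiz thus enclosed their WT arrays. Nfkbie was 8.22 and 8.83 in KO_PyMT, against 8.58 and 8.87 in WT_PyMT (-0.20 ± 0.25), and its other probe gave -0.20 as well. Bcl3 was 4.66 and 6.91 in KO_PyMT, against 6.29 and 5.95 in WT_PyMT. The Bcl3 gap between the KO_PyMT replicates, 2.24, was the widest of any of the 10 genes in any group, and its interval of -1.92 to 1.25 leaves the size of any difference unresolved.

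**Figure D2:**
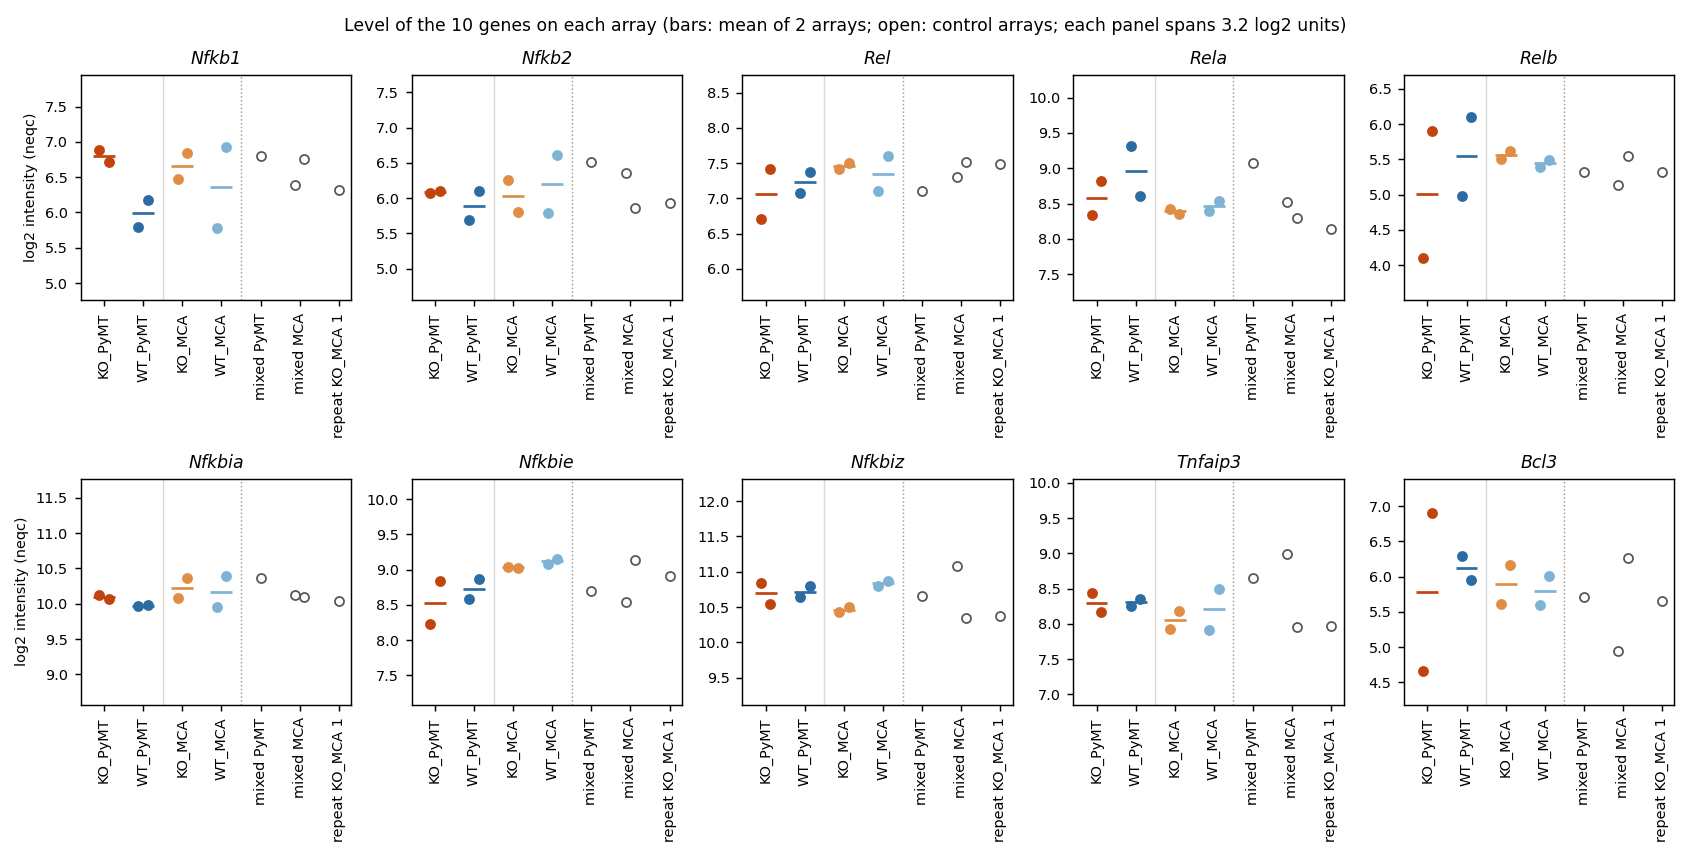
Log2 intensity of each of the 10 genes on every array (filled points, 2 arrays per group; bars, group means; open points, the 4 control arrays), with each panel spanning the same number of log2 units. KO_PyMT lies above WT_PyMT for Nfkb1 (6.71 to 6.88 against 5.80 to 6.18), PyMT lies below MCA for Nfkbie, and the KO_PyMT replicates of Relb and Bcl3 are far apart.

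In MCA macrophages the 10 genes also showed no called change. limma called 0 of 10 and 0 had an unadjusted p under 0.05, where percent called over all genes was 0 and 1.57% had an unadjusted p under 0.05. Between KO_MCA and WT_MCA 5 genes were higher and 5 lower, with a median of -0.01, against 0 for all genes. All 10 adjusted p were 1, and so was the smallest over all genes tested, so these values do not set the 10 genes apart.

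Nfkbiz had the largest MCA difference. Nfkbiz was 10.42 and 10.50 in KO_MCA, against 10.80 and 10.87 in WT_MCA. Both KO arrays lay below both WT arrays, 1.30-fold lower on average, a difference of -0.38 ± 0.19 (95% interval -0.83 to 0.08; limma adjusted p = 1). Nfkbie was 9.04 and 9.03 in KO_MCA, against 9.08 and 9.15 in WT_MCA, apart but by only -0.08 ± 0.25, and its other probe overlapped. Relb was 5.50 and 5.62 in KO_MCA, against 5.40 and 5.49 in WT_MCA, apart by 0.11 ± 0.60. These 3 genes were those that did not overlap, where 30.8% of all genes did not overlap between KO_MCA and WT_MCA.

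Nfkb1, the gene that stood apart in PyMT, was 6.47 and 6.85 in KO_MCA, against 5.79 and 6.92 in WT_MCA. The WT replicates were 1.14 apart, so the difference of 0.30 ± 0.38 was -0.27 without WT_MCA replicate 1 and 0.87 without WT_MCA replicate 2. Nfkbia was 10.08 and 10.37 in KO_MCA, against 9.95 and 10.39 in WT_MCA (0.05 ± 0.22), while its other probe gave -0.31. Tnfaip3 was 7.93 and 8.19 in KO_MCA, against 7.91 and 8.50 in WT_MCA (-0.15 ± 0.25). For these 3 genes the WT_MCA replicates lay further apart than the KO_MCA replicates and enclosed them. Nfkb2 measured 6.26 and 5.81 in KO_MCA, against 5.79 and 6.62 in WT_MCA (95% interval of the difference -0.94 to 0.61). Rela measured 8.42 and 8.35 in KO_MCA, against 8.39 and 8.54 in WT_MCA (95% interval -0.76 to 0.61). Rel and Bcl3 differed by 0.11 ± 0.30 and 0.09 ± 0.67, well within the spread of their arrays.

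On the brightest probe of each gene, the WT_MCA replicates differed in 1 direction for the whole set. All 10 genes were higher on WT_MCA replicate 2 than on WT_MCA replicate 1, by a median of 0.43, whereas 45.5% of all genes were higher on it and the median gap over all genes was 0.23 in size. The gap was 1.14 for Nfkb1, 0.83 for Nfkb2 and 0.58 for Tnfaip3, and 0.07 for both Nfkbie and Nfkbiz. The other Nfkbie probe went the opposite way, at 7.27 on replicate 1 and 7.17 on replicate 2. The other Nfkbia probe went with the set, at 8.25 and 8.86. In the other groups the 10 genes had median replicate gaps of 0.39 in KO_PyMT, 0.31 in WT_PyMT and 0.19 in KO_MCA, close to the 0.35, 0.29 and 0.21 of all genes. Replicate 2 was the higher for 6 of the 10 genes in KO_PyMT, 8 in WT_PyMT and 7 in KO_MCA. Of all genes 49.6%, 51.4% and 48.5% were higher on it. WT_MCA replicate 2 also carried more signal of 3 other marker lists than replicate 1. Fibroblast and sarcoma markers (11 of 13 listed genes tested, 3 of them above background on all 8 arrays) summed in linear intensity to 577 to 606 on KO_MCA arrays, against 395 on WT_MCA replicate 1 and 2164 on WT_MCA replicate 2, with Pdgfrb and Postn not kept by the filter on dim probes. Monocyte markers (5 of 7 tested) summed to 541 to 708 on KO_MCA arrays, against 403 on WT_MCA replicate 1 and 1214 on WT_MCA replicate 2. Neutrophil markers (7 of 11 tested) summed to 514 to 906 on KO_MCA arrays, against 192 on WT_MCA replicate 1 and 485 on WT_MCA replicate 2, with S100a8, Ly6g, Cxcr2 and Retnlg not tested. The part of these markers in the levels of the 10 genes was not tested. Without WT_MCA replicate 1 the MCA comparison had 1 of the 10 genes higher and 9 lower in KO, and without WT_MCA replicate 2 it had 7 higher and 3 lower. In PyMT the split was 7 higher and 3 lower without KO_PyMT replicate 1, so the direction of most of the 10 genes rested on single arrays.

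Over both tumours, with 4 KO and 4 WT arrays, limma again called 0 of the 10 genes, none had an unadjusted p under 0.05, and the KO and WT arrays overlapped for each of them. Percent called over all genes was 0, with 5.12% at an unadjusted p under 0.05 and 2.42% not overlapping. The smallest limma adjusted p of any gene in this comparison was 0.92. The 4 KO arrays of Nfkb1 ranged from 6.47 to 6.88 and the 4 WT arrays from 5.79 to 6.92, so WT_MCA replicate 2 alone lay above the KO arrays. The Nfkb1 means were 6.73 ± 0.19 in KO and 6.17 ± 0.53 in WT (SD, n = 4 arrays each), a difference of 0.55 ± 0.27 (SE; 95% interval -0.07 to 1.17; limma adjusted p = 0.93). This was the largest difference of the 10 in size.

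The intervals show which differences fit these arrays, gene by gene and without adjustment over all genes. They are not limits of what could have been called. Nfkbia, Nfkbiz, Nfkbie and Tnfaip3 had the narrowest. For Nfkbia the difference on its brighter probe was 0.09 ± 0.15 with a 95% interval of -0.25 to 0.43. As a ratio of KO to WT that interval runs from 0.84 to 1.35. The other Nfkbia probe had the opposite sign, at -0.09. For Nfkbiz the difference was -0.20 ± 0.14 (95% interval -0.53 to 0.13). For Nfkbie and Tnfaip3 it was -0.14 ± 0.17 (-0.53 to 0.25) and -0.08 ± 0.17 (-0.47 to 0.32). Rela was 8.48 ± 0.23 in KO and 8.72 ± 0.41 in WT (SD, n = 4 arrays each), a difference of -0.23 ± 0.20. Rel and Nfkb2 differed by -0.03 ± 0.20 and 0.02 ± 0.23. Relb and Bcl3 had the widest intervals, -1.16 to 0.74 and -1.15 to 0.90, or ratios of KO to WT of 0.447 to 1.67 and 0.452 to 1.87, so any change of theirs was only loosely bounded. The KO difference itself did not differ detectably between the tumours for any of the 10 genes. The KO minus WT difference in PyMT minus that in MCA was 0.50 ± 0.54 for Nfkb1, which was higher in KO in both, and 0.35 ± 0.27 for Nfkbiz, whose -0.03 in PyMT was nearer 0 than its -0.38 in MCA (limma adjusted p = 0.948 and 0.933). limma called 0 of 10, and 0 had an unadjusted p under 0.05, where percent called over all genes was 0 and 5.76% had an unadjusted p under 0.05.

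**Figure D3:**
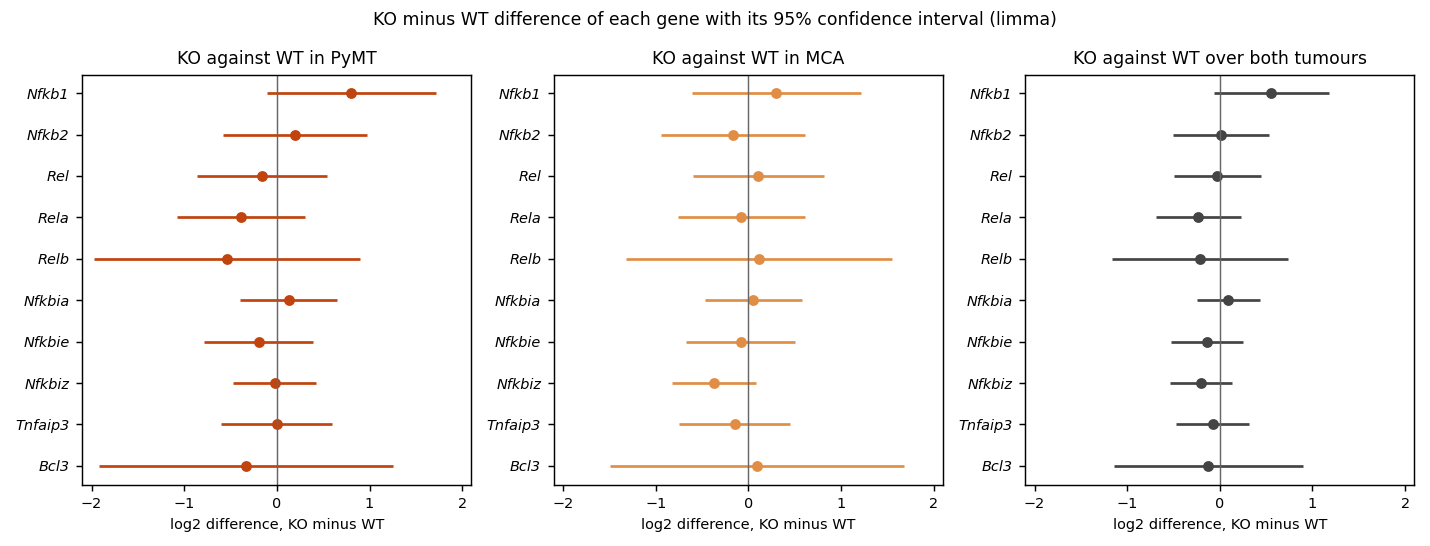
Log2 difference of KO minus WT (points) with its 95% interval (lines) for each of the 10 genes, in PyMT (left; 2 arrays per group), in MCA (middle; 2 arrays per group) and over both tumours (right; 4 arrays per genotype). All 30 intervals include 0, and those of Relb and Bcl3 are the widest.

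PyMT macrophages were set against MCA macrophages over both genotypes, a comparison in which tumour type also stands for sex and BeadChip. limma called 0 of the 10 genes, against a percent called of 0.163 over all genes (23 genes), and 1 of 10 had an unadjusted p under 0.05, against 15% of all genes. That gene was Nfkbie, the inhibitor IkappaB-epsilon. Nfkbie was 8.22 and 8.83 in KO_PyMT and 8.58 and 8.87 in WT_PyMT, against 9.04 and 9.03 in KO_MCA and 9.08 and 9.15 in WT_MCA. All 4 PyMT arrays lay below all 4 MCA arrays, 1.36-fold lower on average, a difference of -0.45 ± 0.17 (95% interval -0.83 to -0.06; limma adjusted p = 0.271). The other Nfkbie probe, at 6.54 to 7.07 in PyMT against 7.09 to 7.27 in MCA, was also apart, by -0.34 (limma adjusted p over all probes = 0.324). The difference was -0.51 ± 0.25 within KO and -0.39 ± 0.25 within WT. Leaving out single arrays moved it between -0.56 and -0.32, and the other alternatives between -0.69 and -0.37. The -0.69 came under median scaling, which moved the median of all genes to -0.13. Nfkbie was the only 1 of the 10 genes whose PyMT and MCA arrays did not overlap. Among all genes 5.53% lay below MCA on every PyMT array and 10.5% were apart in either direction.

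None of the other 9 genes separated the tumours over both genotypes. With 2 arrays a group, Rela was apart within WT (0.50 ± 0.29) and Nfkbiz within KO (0.23 ± 0.19), both higher in PyMT (limma adjusted p = 0.718 and 0.654). The other Nfkbia probe was also apart within WT, but lower in PyMT (-0.58). The share of all genes apart within WT or within KO is not given here. Between KO and WT, also with 2 arrays a group, it was 35.8% in PyMT and 30.8% in MCA. Rela was 8.77 ± 0.42 in PyMT and 8.43 ± 0.08 in MCA (SD, n = 4 arrays each), a difference of 0.35 ± 0.20 (limma adjusted p = 0.457). WT_PyMT replicate 1, at 9.32, was the highest Rela array, and without it the difference was 0.17. Rel was 7.14 ± 0.32 in PyMT and 7.40 ± 0.21 in MCA (limma adjusted p = 0.583). Nfkbia gave -0.16 ± 0.15 on its brighter probe and -0.37 on the other, Tnfaip3 0.17 ± 0.17 and Nfkbiz 0.06 ± 0.14. Under median scaling the last 2 were -0.09 and -0.13, but that scaling moved the median of all genes to -0.13. Nfkb1, Nfkb2, Relb and Bcl3 differed by -0.11 ± 0.27, -0.13 ± 0.23, -0.23 ± 0.41 and 0.11 ± 0.44. Of the 10 genes 4 were higher and 6 lower in PyMT, with a median of -0.12, against 0.004 for all genes, of which 50.4% were higher.

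The control arrays give the spread of the 10 genes between arrays of the same label. The RNA of KO_MCA replicate 1 was run on both BeadChips, and the PyMT BeadChip minus the MCA BeadChip gave -0.33 for Nfkb2, -0.29 for Rela, -0.18 for Relb and -0.15 for Nfkb1. The other 6 genes lay between -0.13 and 0.07, Nfkbie at -0.13 and, on its other probe, -0.08. The SD of that difference over all genes was 0.28. The repeat is a single pair and gives no error of its own, and the part of the BeadChip in the PyMT minus MCA differences cannot be told apart from that of tumour and sex.

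The mixed MCA arrays differed more, with an SD over all genes of 0.44. Tnfaip3 was 1.04 higher on mixed MCA replicate 1 than on replicate 2, where it was 7.95, and Nfkbiz was 11.08 on replicate 1 and 10.35 on replicate 2. Bcl3 was 4.94 on replicate 1 and 6.26 on replicate 2, a difference of -1.32. Nfkbia differed by 0.03 on the brighter probe and by 0.88 on the other. Nfkbie was 8.54 on replicate 1 and 9.13 on replicate 2. That difference of -0.59, between arrays of 1 label on 1 BeadChip, was larger in size than the PyMT minus MCA difference of -0.45, and replicate 1 lay within the PyMT range of 8.22 to 8.87. Replicate 1 was thus higher for Tnfaip3 and Nfkbiz and lower for Nfkbie and Bcl3. Over all genes 12.1% differed by more than 0.67 in either direction between these arrays. Mixed PyMT had 1 array, with Nfkb1 at 6.80, Rela at 9.07, Nfkbie at 8.69 and Tnfaip3 at 8.65. Against the mean of the mixed MCA arrays it differed by 0.67 for Rela, 0.23 for Nfkb1, 0.18 for Tnfaip3 and -0.15 for Nfkbie. The other Nfkbie probe gave -0.28. Which cells were mixed the labels do not say.

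**Figure D4:**
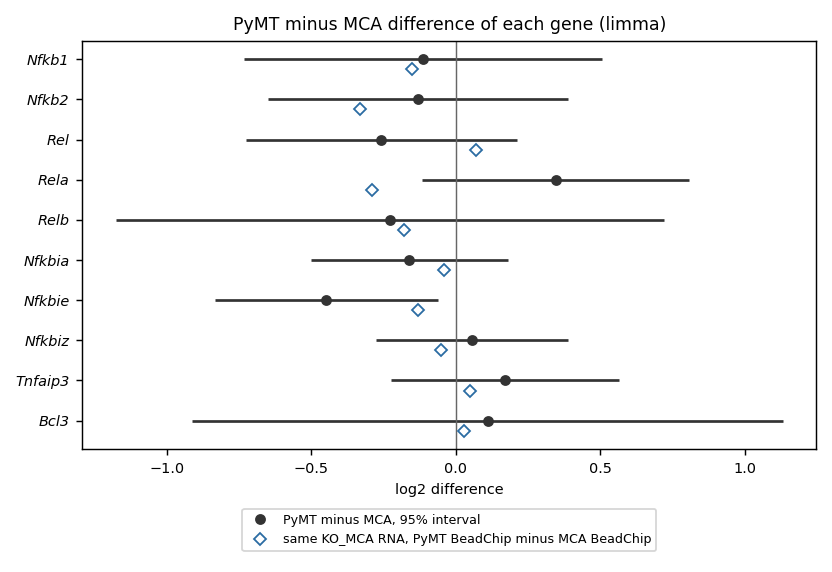
PyMT minus MCA log2 difference over both genotypes (filled points; lines, 95% interval; 4 arrays per tumour) for each of the 10 genes, beside the difference between the BeadChips for the same KO_MCA RNA (open diamonds, 1 pair of arrays). Only the Nfkbie interval, -0.83 to -0.06, excludes 0. Its BeadChip difference is -0.13, and the mixed MCA arrays, not drawn here, differ by -0.59.

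Genes around the 10 in the pathway were counted from 5 lists. Of the IkappaB kinases and upstream kinases, which trigger removal of the inhibitors, 11 of 12 listed genes were tested and 0 were called in KO against WT in PyMT, in MCA or over both tumours. Over both tumours 4 were higher and 7 lower in KO, with Tab2, an adaptor of the kinase TAK1, at -0.52 ± 0.19. Of the receptors and adaptors that feed NF-kappaB, 25 of 31 were tested, 0 were called, and 12 were higher and 13 lower over both tumours. The peptidoglycan sensor Nod1 was 5.36, 5.88, 6.10 and 6.34 on the KO arrays, against 7.24, 6.84, 6.53 and 6.90 on the WT arrays, apart by -0.96 ± 0.24. The co-stimulatory receptor Cd40 was 7.05 to 7.42 on the KO arrays, against 7.52 to 7.98 on the WT arrays (-0.54 ± 0.15). Both had a limma adjusted p of 0.93. Of the other inhibitors and ubiquitin editors, 20 of 21 were tested, 0 were called, and 9 were higher and 11 lower. Those of smallest p were Nfkbil1 at 0.35 ± 0.15, Nkiras2 at -0.60 ± 0.26 and the deubiquitinase gene Otulin at -0.35 ± 0.16, each with a limma adjusted p of 0.93.

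Of 41 NF-kappaB target genes of myeloid cells, 39 were tested and 0 were called in KO against WT. In PyMT 15 were higher and 24 lower (median -0.07), in MCA 7 were higher and 32 lower (median -0.17), and over both 15 were higher and 24 lower (median -0.05), where about as many of all genes were higher as lower (49.8% higher in PyMT, 49.9% in MCA and 50.1% over both). The lower share in MCA rested on WT_MCA replicate 2. Without it 19 were higher and 20 lower (median -0.05), and without WT_MCA replicate 1 there were 6 higher and 33 lower (median -0.32). Of the macrophage markers, 10 of 12 were lower in KO both in MCA (median -0.07) and over both tumours (median -0.12), with 0 called. Itgam and Fcgr1 measured -0.63 ± 0.18 and -0.73 ± 0.25 over both tumours (limma adjusted p = 0.93 for each). In MCA, fibroblast and sarcoma markers were lower in KO for 10 of 11 tested genes (median -0.19). Dendritic cell markers were higher for 8 of 9 (median 0.19) and neutrophil markers for 5 of 7 (median 0.27). The part of these marker lists in the target genes was not tested. The smallest p over both tumours belonged to Tnfsf9 (-0.89 ± 0.12), Nlrp3 (-0.71 ± 0.14) and the chemokine Ccl3 (-0.44 ± 0.14), with limma adjusted p of 0.92, 0.93 and 0.93. Of the immediate early genes, a rapid stress and activation response, 22 of 23 were tested, 0 were called, 15 were higher and 7 lower in KO_PyMT, and 6 were higher and 16 lower in KO_MCA, with Jun at -0.49 ± 0.17 over both. Without KO_PyMT replicate 1 the PyMT split was 11 higher and 11 lower, and without WT_MCA replicate 2 the MCA split was 9 and 13. A difference between the tumours was not tested for this list.

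Between the tumours, limma called 2 of the 39 target genes, against the percent called of 0.163 over all genes, and both were higher in PyMT. Ccl3, which recruits leukocytes, was 9.67 and 9.62 in KO_PyMT and 9.84 and 10.16 in WT_PyMT, against 8.35 and 8.42 in KO_MCA and 9.02 and 8.82 in WT_MCA, a difference of 1.17 ± 0.14 (limma adjusted p = 0.0261). Il1a, which encodes interleukin-1 alpha, was 10.22 and 10.51 in KO_PyMT and 10.47 and 10.35 in WT_PyMT, against 8.79 and 8.86 in KO_MCA and 9.23 and 9.54 in WT_MCA, a difference of 1.28 ± 0.17 (limma adjusted p = 0.0395). All PyMT arrays lay above all MCA arrays for both genes. Both calls lay near the threshold. Leaving out single arrays kept the Ccl3 call in 1 of 8 cases and the Il1a call in 0 of 8, at differences of 1.13 to 1.25 and 1.17 to 1.39. Tnf, the cytokine that triggers the canonical pathway, measured 1.04 ± 0.20 and did not pass (limma adjusted p = 0.0959). The list as a whole had 20 higher and 19 lower.

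The other lists had 0 genes called between tumours. In the kinase list 8 were higher and 3 lower, with the kinase gene Ikbkb at 6.99 and 7.61 in KO_PyMT and 6.54 and 6.97 in WT_PyMT, against 5.77 and 6.28 in KO_MCA and 6.10 and 6.47 in WT_MCA (0.87 ± 0.25, limma adjusted p = 0.188). In the list of other inhibitors 5 were higher and 15 lower (median -0.17), among them Pdlim2, an E3 ligase for nuclear p65, at -0.74 ± 0.20, while the nuclear inhibitor gene Nfkbid was higher, at 0.39 ± 0.12 (limma adjusted p = 0.174 and 0.206). Irak3, a brake on Toll-like receptor signalling, measured -0.93 ± 0.26, and Egr3, an immediate early gene, 1.96 ± 0.31 (limma adjusted p = 0.176 and 0.0718). Receptors and adaptors split 12 higher and 13 lower, and immediate early genes 11 and 11.

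Markers of other cells also differed between the tumours, but not in every list. Dendritic cell markers were higher in PyMT for 8 of 9 tested genes, and within KO for 5 with 4 lower. Their summed linear intensity was 429 to 549 in KO_PyMT and 472 to 558 in WT_PyMT, against 310 to 351 in KO_MCA and 251 to 319 in WT_MCA, with Zbtb46 not kept by the filter. Epithelial and mammary markers were higher for 6 of 6 tested genes of 10 listed, but only 1 was above background on all 8 arrays. Their sums were 242 to 403 in KO_PyMT and 334 to 454 in WT_PyMT. In KO_MCA they were 158 to 172 and in WT_MCA 167 to 168. The milk protein gene Csn3 was called (1.57 ± 0.17, limma adjusted p = 0.0202). It was above background on 4 of the 8 arrays, at 5.28 to 5.95 in PyMT and 4.09 to 4.22 in MCA. The filter needs 2 arrays, so it keeps a gene that is above background in a single tumour only, and these directions are not independent of it. Krt5, Krt19, Csn2 and Wap were not kept by the filter. Macrophage markers were lower for 10 of 12, with Itgam at -0.85 ± 0.18 (limma adjusted p = 0.125). Fibroblast and sarcoma markers were lower in PyMT for 8 of 11 tested genes, and for 11 of 11 within WT, with 0 called. Within KO 5 of these markers were higher and 6 lower. Their sums were 548 to 642 in KO_PyMT and 347 to 536 in WT_PyMT, against 577 to 606 in KO_MCA and 395 to 2164 in WT_MCA. The collagen gene Col1a1 was 4.08 to 4.18 in PyMT, against 4.84 to 8.91 in MCA. Monocyte markers were lower for 4 of 5, with sums of 484 to 577 in KO_PyMT and 450 to 497 in WT_PyMT, against 541 to 708 in KO_MCA and 403 to 1214 in WT_MCA. T and NK cell markers were higher in PyMT for 5 of 6 tested genes of 12 listed, with 0 called. Cd3d and Klrb1c measured 0.73 ± 0.16 and 0.49 ± 0.16, and Cd8b1 -0.63 ± 0.30 (limma adjusted p = 0.125, 0.224 and 0.374). Cd3d was above background on 4 of the 8 arrays. The sums of this list were 191 to 212 in KO_PyMT and 164 to 225 in WT_PyMT. In KO_MCA they were 193 to 216 and in WT_MCA 193 to 194, so the tumours overlapped. Neutrophil markers split 4 higher and 3 lower in PyMT, with 0 called and Mmp9 at -2.74 ± 0.64 (limma adjusted p = 0.133). Their sums were 239 to 452 in KO_PyMT and 240 on each WT_PyMT array. In KO_MCA they were 514 to 906 and in WT_MCA 192 to 485. The part of these cells in the differences of Nfkbie, Ccl3 and Il1a was not tested.

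**Figure D5:**
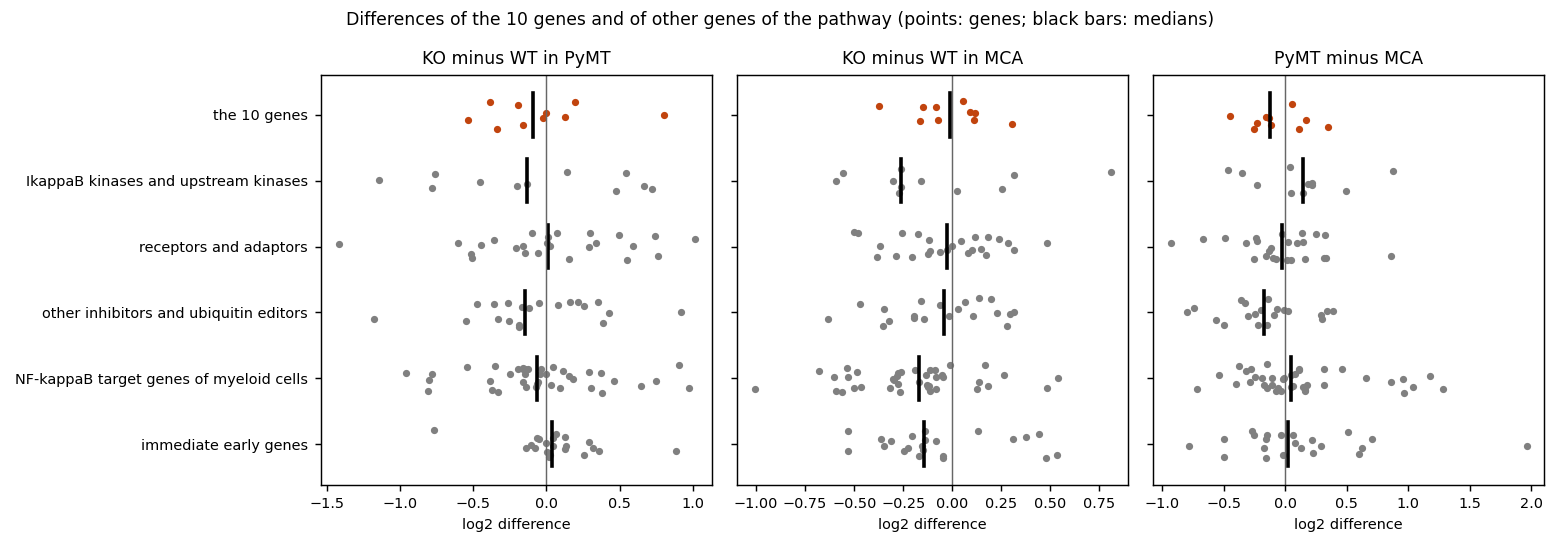
Log2 difference of each tested gene (points; black bars, medians) for the 10 genes and for 5 lists of other pathway genes, KO minus WT in PyMT (left), KO minus WT in MCA (middle) and PyMT minus MCA (right). The medians of the 10 genes are -0.09, -0.01 and -0.12, and the target genes in MCA have a median of -0.17 with 32 of 39 below 0.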

How the data were processed

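The deposited intensity is a probe's mean bead signal, linear and not background-subtracted, and the deposited detection p-value tests it against background, per the file headers. The authors also deposited normalized intensity values (method not given in the sources used here), used as an alternative. The log2 values are not the authors' own but were computed from the deposited intensity with neqc of limma 3.58.1 (R 4.3.3, tables read with data.table, version 1.17.8), offset 16, over all 12 arrays.

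GEO's platform annotation gave 1 symbol to 35784 of the 46237 probes, several to 0, and none to 10453 that it omits, with 937 symbols updated from RefSeq (GRCm38.p6). The 26748 probes with a detection p under 0.05 on 2 or more of the 8 group arrays were retained, and the brightest probe per gene gave 14103 genes. A 4-group limma model (residual df 4, prior df 2.75) tested KO against WT in each tumour and their difference, and an additive model (residual df 5, prior df 2.92) tested genotype and tumour over all 8 arrays. P-values were two-sided and adjusted by the Benjamini-Hochberg method over all genes, with calls at an adjusted p under 0.05. The few arrays limit the precision.

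The 10 genes and the gene lists were chosen with earlier results of these data known. All 10 genes are named in every comparison, and from each list at most 3 genes of smallest p over both tumours and 3 between tumours, with every called gene. Marker lists for macrophages, monocytes, neutrophils, dendritic, epithelial and fibroblast cells are given where they move with a result. Those for lymphocytes (T and NK, B and plasma), mast cells with other granulocytes, and endothelium had 0 genes called in the 5 comparisons. Of these, only T and NK cell markers are given, between tumours. Promoter sequences are from RefSeq (GRCm38.p6).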

Additional observations from a re-analysis of the deposited data

How the results depend on the processing

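The count of called genes among the 10 was 0 in all 5 comparisons under every alternative run, with a lowest limma adjusted p of 0.0954 (Nfkbie between tumours, median scaling). Directions were less stable. Under median scaling Nfkbiz and Tnfaip3 in PyMT became 0.085 and 0.072, and Nfkbiz, Tnfaip3 and Bcl3 between tumours -0.127, -0.086 and -0.161. Nfkbia in MCA was -0.127 by the mean of its probes. Over both tumours Nfkb2 was -0.002 without background correction, -0.009 from the authors' values and -0.027 with the repeat array averaged in, and Rel 0.053 with array weights. Leaving out each array in turn also reversed signs, the lone remaining array being assumed to vary like the other groups. In PyMT, KO minus WT ranged over -0.012 to 0.40 for Nfkb2, -0.51 to 0.19 for Rel, -1.44 to 0.36 for Relb and -0.50 to 0.11 for Nfkbie, and further over -0.17 to 0.12 for Nfkbiz, -0.14 to 0.13 for Tnfaip3 and -1.46 to 0.78 for Bcl3. In MCA, KO minus WT ranged over -0.27 to 0.87 for Nfkb1, -0.58 to 0.25 for Nfkb2 and -0.14 to 0.36 for Rel, and further over -0.17 to 0.27 for Nfkbia, -0.44 to 0.14 for Tnfaip3 and -0.18 to 0.36 for Bcl3. Over both tumours, KO minus WT ranged over -0.12 to 0.22 for Nfkb2, -0.15 to 0.14 for Rel and -0.51 to 0.21 for Relb, and further over -0.18 to 0.055 for Tnfaip3 and -0.53 to 0.37 for Bcl3. The KO difference in PyMT minus that in MCA ranged over -0.067 to 1.07 for Nfkb1, -0.057 to 0.78 for Nfkb2, -0.62 to 0.081 for Rel, -0.66 to 0.043 for Rela and -1.55 to 0.25 for Relb, and further over -0.15 to 0.29 for Nfkbia, -0.42 to 0.19 for Nfkbie, -0.15 to 0.44 for Tnfaip3 and -1.55 to 0.69 for Bcl3. PyMT minus MCA ranged over -0.29 to 0.16 for Nfkb1, -0.26 to 0.072 for Nfkb2 and -0.52 to 0.20 for Relb, and further over -0.037 to 0.12 for Nfkbiz and -0.30 to 0.60 for Bcl3. Of all genes, limma called up to 108 in PyMT (without KO_PyMT replicate 1) and 33 (without KO_PyMT replicate 2), 7 without background correction, 6 from the authors' values and 4 without a detection filter, against 0. Between tumours it called 8 to 78, against 23, and over both tumours 2 without background correction and 2 from the authors' values, against 0. Relb drops out where a probe must be above background on all 8 arrays (7087 genes). The replicate numbers did not pair arrays across groups, with correlations of deviations of -0.04 to 0.08, and with the number as a replicate block 0 of the 10 genes were called and 21 genes between tumours, while the Ccl3 and Il1a calls were lost (adjusted p = 0.0557 and 0.0734). The Ccl3 call was also lost under median scaling (0.93, adjusted p = 0.063) and the Il1a call without a detection filter (adjusted p = 0.0521). The alternatives with 8 arrays normalized alone, and those for Ccl3 and Il1a, were chosen after seeing the data.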
